A study of Homo sapiens with 8 samples.

Results

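The genes described are those of the CD3 complex, the first steps of T-cell receptor (TCR) signalling and the pan-T surface antigens: CD3D, CD3E, CD3G, CD247, LCK, ZAP70, LAT, CD2, CD5 and CD7. They were chosen by name, with earlier results of these data known, and include every probe set annotated to one of these 10 genes alone. This gave 16 of the 41097 single-gene probe sets, and 10 of the 19775 genes. Genes CD3D, CD3E, CD3G and CD2 had 1 probe set each and the other 6 genes had 2.

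RNA came from CUTLL1, an established human T-ALL (T-cell acute lymphoblastic leukemia) line, so all values describe a single line with no normal T cell beside it. The 4 groups were exposed for 48 h to DMSO alone, to 1 microM of the gamma-secretase inhibitor PF-03084014, to 1 microM of the glucocorticoid dexamethasone, or to both compounds at 1 microM each (the combination). Gamma-secretase inhibition blocks the cleavage that releases active NOTCH. Each group held 2 Affymetrix arrays, which the labels call replicas without saying whether they were separate cultures, so the p-values cover the variation among these arrays alone, which may be technical.

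The TCR has no signalling domain of its own. It depends on the CD3 chains and on the zeta chain encoded by CD247, whose tyrosine motifs are phosphorylated by the kinase LCK. The kinase ZAP70 then docks on the phosphorylated chains and phosphorylates the membrane adaptor LAT, from which calcium and RAS signalling start. CD2, CD5 and CD7 are surface proteins that mark T-lineage cells from early stages and are used to recognise T-ALL.

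Probe-set intensity, the authors' deposited linear value, was floored at 16 and converted to log2, and each gene was represented by its probe set with the highest mean. A difference between groups is called (rose or fell) at a Benjamini-Hochberg adjusted p under 0.05 in limma's moderated test across all 19775 genes. An error written after ± is the standard error from that fit, or an SD where named. The number of arrays limits the precision, and a median standard error of 0.178 log2 units was reached. The treatments left their usual marks: NRARP, a NOTCH target, read 5410 to 6280 without PF-03084014 and 515 to 948 with it, and TSC22D3, a glucocorticoid target, read 430 to 583 without dexamethasone and 5480 to 7840 with it. The second combination array stood apart, with a median intensity of 76.3 against 61.8 to 63.9 on the others. Shifting all arrays to a common median moved the median difference of all genes between combination and DMSO by -0.13, and the share of calls that were higher from 53.8% to 31.9%. The same shift changed that share from 57.4% to 44.8% for PF-03084014 and from 85% to 100% for dexamethasone, against DMSO. It changed the share from 45.1% to 17.4% for the combination against dexamethasone and from 38.3% to 24% against PF-03084014.

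The labelled lineage was checked with markers. Of 7 measured T-lineage genes, all 7 had a mean intensity over 100, among them BCL11B (4930 to 6720 over the 8 arrays) and LEF1 (10800 to 13200). Besides CD2, 10791 of the 19775 genes had a mean over 100, so passing it does not by itself mark a lineage. Of 7 B-lineage markers 2 exceeded 100, CD79A (297 to 585) and CD22 (303 to 651), while PAX5 stayed between 29.4 and 52.9. The summed intensity of the B-lineage list was 862 to 889 in DMSO, 929 to 990 with PF-03084014, 968 to 1000 with dexamethasone and 1050 to 1490 with the combination. Natural killer cells share LCK, ZAP70, CD247, CD2 and CD7 with T cells. Of 7 markers of those cells 5 exceeded 100, with sums of 2120 to 2360, 2190 to 2200, 2210 to 2250 and 1880 to 2130 in the same order of groups. Of 7 myeloid markers CSF1R and ITGAM exceeded 100, with sums of 588 to 661, 561 to 621, 492 to 495 and 387 to 532. CD14 read 4.62 to 19.4 and was at or below the floor on at least 4 arrays, and no marker was at the floor on all. Of 6 erythroid markers EPOR and TFRC exceeded 100 (sums of 9390 to 10900, 7760 to 8420, 9950 to 10300 and 7860 to 8440). Most of these sums was TFRC, which read 7140 to 10300 over the 8 arrays. Of 8 epithelial and stromal markers COL1A1 and VIM exceeded 100 (sums of 9990 to 10000, 10300 to 10600, 9440 to 9660 and 8880 to 10000). Here most was VIM, at 8230 to 10200. With the combination, CD79A (0.86 ± 0.090) and PRF1 (0.49 ± 0.094) rose and NKG7 (-1.08) and ITGAM (-1.72) fell; no other marker of these 5 lists was called under any treatment against DMSO. Over all genes 6.42% rose and 5.52% fell with the combination, and 0.819% and 0.101% were called with PF-03084014 and dexamethasone. Of the T-lineage list 3 genes rose (RAG1, RAG2 and GATA3) and 1 fell (PTCRA) with the combination. With PF-03084014 2 rose (RAG2 and GATA3) and 1 fell (PTCRA), and with dexamethasone 1 rose (PTCRA). The sums of that list were 24000 to 26500 in DMSO and 31100 to 32200 with PF-03084014. They were 28200 to 28700 with dexamethasone and 33000 to 33700 with the combination. Over the 8 arrays RAG1 read 1170 to 5100 and RAG2 726 to 2130. The part of these markers in the results was not tested. In a bulk sample, fewer cells of a type and less RNA per cell cannot be told apart.

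Of the 10 genes, 2 rose with the combination against DMSO, CD2 and CD3E, and none fell. CD2 stood 2.17-fold higher and CD3E 1.28-fold higher. No member was called with PF-03084014 alone or dexamethasone alone. Over all genes 11.9% were called for the combination, 0.819% for PF-03084014 and 0.101% for dexamethasone, so 2 of 10 members and 0 of 10 are to be read against those shares. By direction, 6.42% of all genes rose and 5.52% fell with the combination. Fitted by probe set, 2 of 16 were called for the combination, those of CD2 and CD3E, and 0 for each single compound, against 7.95%, 0.394% and 0.0487% of all probe sets. At an unadjusted limma p under 0.05 there were 4 members for the combination, 5 for PF-03084014 and 3 for dexamethasone, against 28.4%, 13.2% and 8.96% of all genes. The median difference of the 10 members was 0.11 for the combination, 0.13 for PF-03084014 and -0.0053 for dexamethasone, beside 0.064, 0.018 and 0.014 for all genes.

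**Figure D1:**
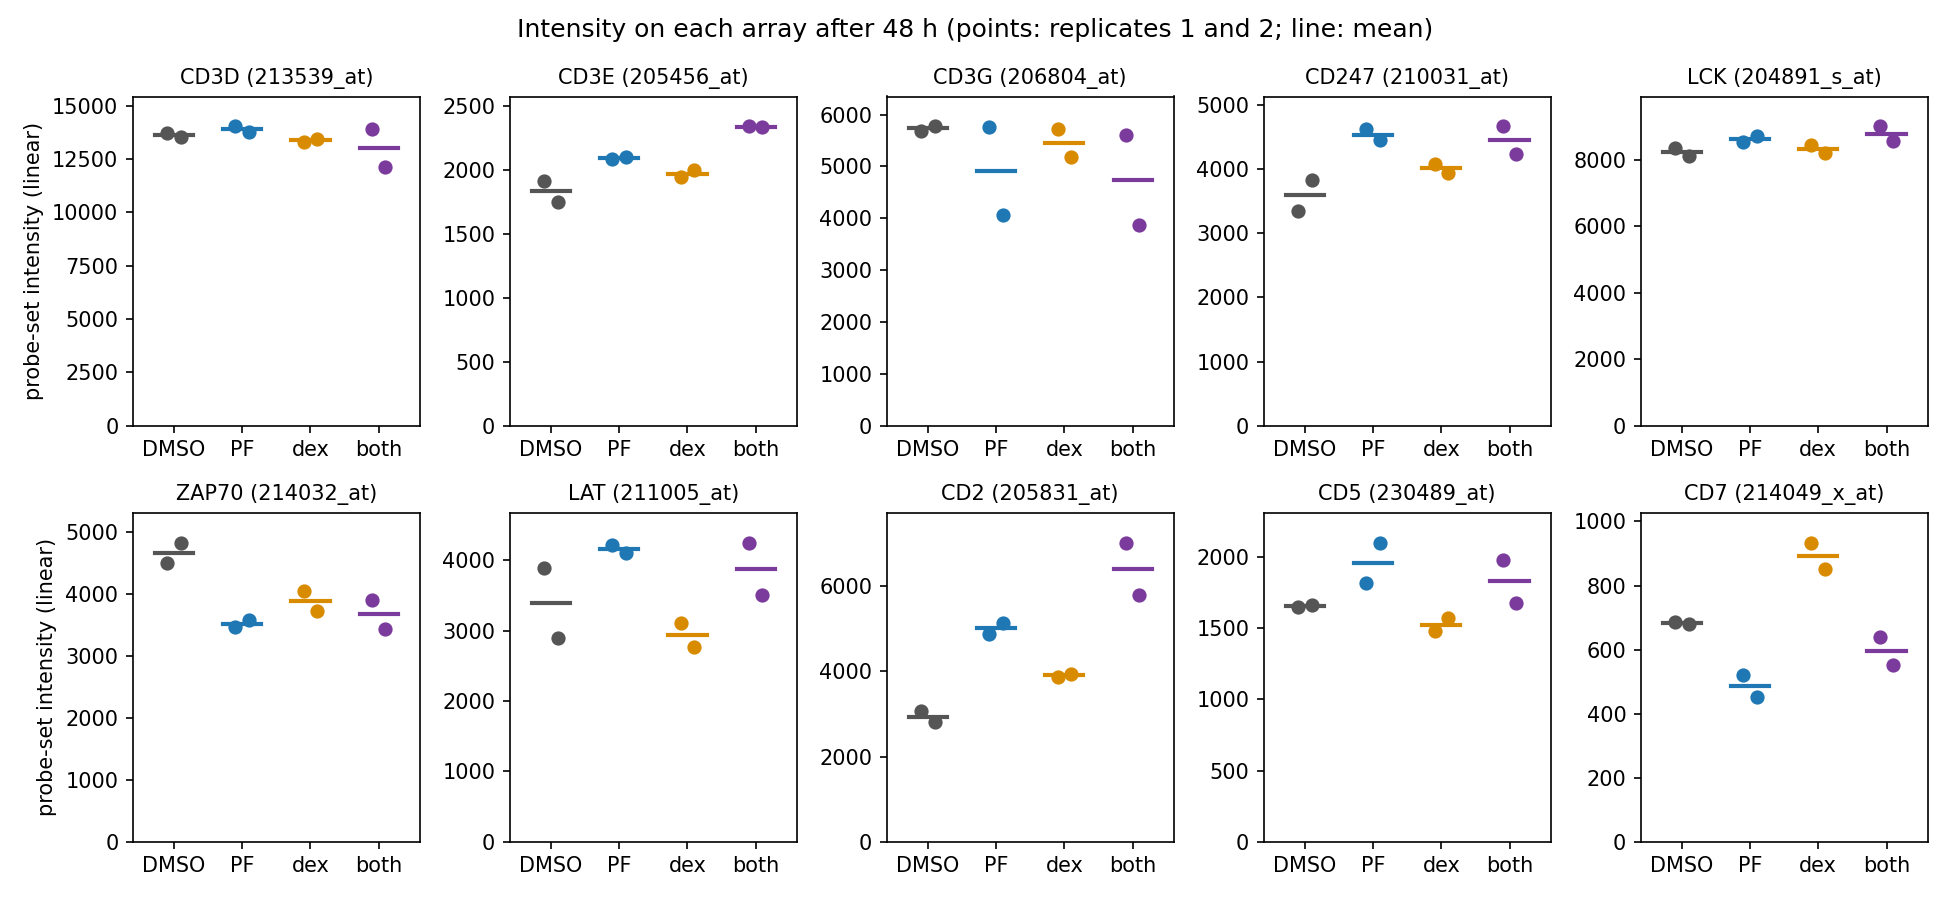
Probe-set intensity (linear axis from 0) of the 10 genes on each array, by treatment (PF, PF-03084014; dex, dexamethasone; both, the combination). Points are the 2 arrays of a group and lines their mean; CD2 climbs from 2804 and 3063 in DMSO to 5788 and 7016 with the combination, whereas LCK stays between 8114 and 8996 on all arrays.

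**Figure D2:**
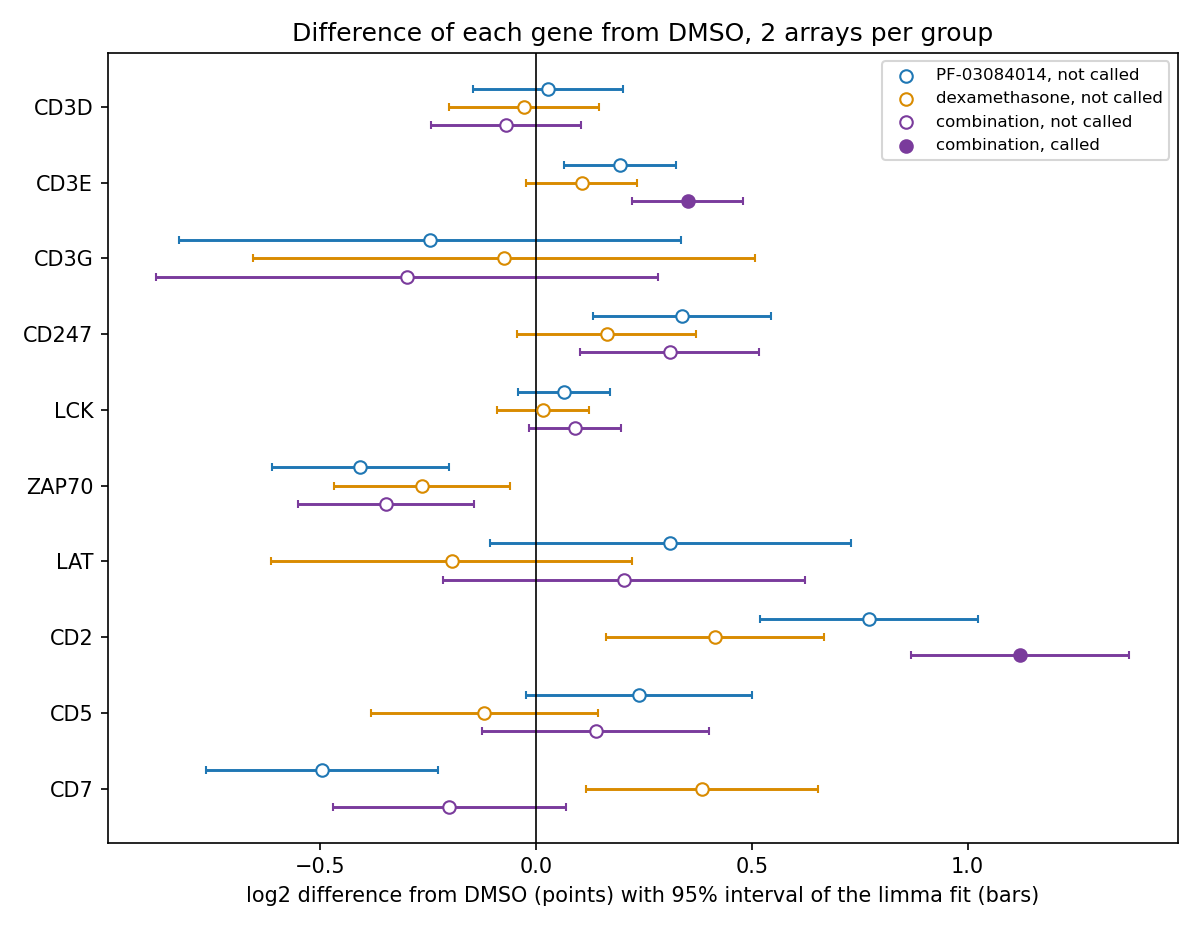
Log2 difference from DMSO (horizontal axis) of each gene under each treatment, with 95% intervals of the limma fit as bars; filled points were called at an adjusted p under 0.05. CD2 and CD3E are the called genes, both under the combination, and the points of CD7 lie on opposite sides of 0 for PF-03084014 and dexamethasone.

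Promoter sequence was available for 6 of the 10 genes, in 10 windows of the 250 bases before an annotated start (RefSeq, GRCh38.p14). CD3E, CD3G, CD5 and CD7 were not matched. Printed are CD2, which had the largest rise, CD247 and ZAP70, whose intensities lay above and below DMSO on every treated array, and CD3D, whose means varied least among the CD3 chains. Each runs 5′ to 3′ towards the start. Capitals mark letters of the E-box CANNTG, bound by helix-loop-helix factors such as those active in thymocytes, and of TGGGAA on either strand, the core bound by RBPJ, the DNA-binding partner of NOTCH.
CD2 (chr1:116754180-116754429, plus strand): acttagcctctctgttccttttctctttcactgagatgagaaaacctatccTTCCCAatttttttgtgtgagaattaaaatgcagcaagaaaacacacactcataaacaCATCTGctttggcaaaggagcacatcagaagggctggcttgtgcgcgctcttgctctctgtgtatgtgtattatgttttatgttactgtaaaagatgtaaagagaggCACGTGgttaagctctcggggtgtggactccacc
CD247 (chr1:167518530-167518779, minus strand): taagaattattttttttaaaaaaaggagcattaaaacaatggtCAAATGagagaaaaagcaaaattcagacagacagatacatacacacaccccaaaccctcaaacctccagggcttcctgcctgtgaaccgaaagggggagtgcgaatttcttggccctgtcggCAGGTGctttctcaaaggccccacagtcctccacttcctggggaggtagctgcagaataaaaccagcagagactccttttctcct
ZAP70, the first of 3 start sites (chr2:97713326-97713575, plus strand): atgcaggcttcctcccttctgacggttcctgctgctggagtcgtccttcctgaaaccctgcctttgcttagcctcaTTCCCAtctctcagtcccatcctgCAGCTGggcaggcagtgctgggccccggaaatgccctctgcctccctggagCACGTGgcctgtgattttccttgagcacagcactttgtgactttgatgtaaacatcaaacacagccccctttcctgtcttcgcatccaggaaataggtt
CD3D (chr11:118342706-118342955, minus strand): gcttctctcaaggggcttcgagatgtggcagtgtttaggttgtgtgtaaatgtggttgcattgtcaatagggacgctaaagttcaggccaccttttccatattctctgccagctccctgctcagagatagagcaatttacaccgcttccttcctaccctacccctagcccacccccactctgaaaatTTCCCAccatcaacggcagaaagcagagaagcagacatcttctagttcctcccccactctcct

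Searched on both strands, TGGGAA began 199 bases before the start of CD2 and 63 before that of CD3D. It was absent from the CD247 window. For ZAP70 it began 174 bases before start site 1 and was absent from the windows of start sites 2 and 3. CD2 held E-boxes at 141 and 34 bases, CD247 at 207 and 85, and CD3D none. ZAP70 held them at 150 and 99 bases before start site 1 and at 238, 178 and 90 before start site 3. Its window of start site 2 held none. Of the 10 windows of these genes 5 held TGGGAA and 6 an E-box, against 20.8% and 61.8% of 35116 windows of that length. The ETS core GGAAG, which can overlap TGGGAA and does in the CD2 window, occurred in 8 windows (65.1% of all) and the RUNX letters TGTGGT in 2 (11% of all). The palindromic glucocorticoid receptor element occurred in 0 (0.327% of all). A match is a description of letters only, and no binding was measured.

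The CD3 chains did not move as a unit. CD3E encodes the epsilon chain, which pairs with either of the delta and gamma chains. Its probe set, 205456_at, read 1915 and 1746 in DMSO, 2087 and 2101 with PF-03084014, 1944 and 1994 with dexamethasone, and 2338 and 2330 with the combination. Every treated array lay above both DMSO arrays, and the combination arrays were the highest. The rise with the combination was 0.35 ± 0.051 log2 units (limma adjusted p = 0.0152). With PF-03084014 the difference was 0.20 ± 0.051 (adjusted p = 0.192) and with dexamethasone 0.11 ± 0.051 (adjusted p = 0.662), neither called. After the shift to a common median the combination difference was 0.22 (adjusted p = 0.305) and with array weights the adjusted p was 0.0734, so the call ended in 2 of 18 alternatives. Without the second combination array it was 0.35 (adjusted p = 0.0461).

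CD3D (213539_at) encodes the delta chain and was among the brightest members. Its arrays read 13700.4 and 13545 in DMSO, 14030.0 and 13748 with PF-03084014, 13293 and 13449 with dexamethasone, and 13909.8 and 12131 with the combination. The second combination array was the lowest and the other 7 lay within a narrow band. The largest intensity on any probe set was 18406 to 19915 per array. Differences from DMSO were 0.028 with PF-03084014 (95% interval -0.15 to 0.20), -0.027 with dexamethasone (-0.20 to 0.15) and -0.069 with the combination (-0.24 to 0.11). Under quantile normalization the combination difference was 0.015, and without the second combination array 0.030, so its direction was not stable.

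CD3G (206804_at), the gene of the gamma chain, had replicates that lay far apart in both groups with PF-03084014. DMSO arrays read 5694 and 5773, dexamethasone arrays 5721 and 5192, PF-03084014 arrays 5764 and 4062, and combination arrays 5614 and 3876. In each group with PF-03084014 the first array was close to DMSO and the second was lower. The log2 SD between replicates was 0.36 with PF-03084014 and 0.38 with the combination, against 0.014 in DMSO. The differences of -0.24 ± 0.23 with PF-03084014 (adjusted p = 0.788) and -0.30 ± 0.23 with the combination (adjusted p = 0.444) were within that spread. Without the second PF-03084014 array the first difference was 0.0077.

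CD247 encodes the zeta chain, which carries most of the tyrosine motifs of the receptor. Probe set 210031_at read 3350 and 3836 in DMSO, 4621 and 4450.0 with PF-03084014, 4086 and 3947 with dexamethasone, and 4666 and 4231 with the combination. All 6 treated arrays exceeded both DMSO arrays, but the DMSO arrays were also 0.20 log2 units apart. Differences were 0.34 ± 0.082 (adjusted p = 0.166), 0.16 ± 0.082 (adjusted p = 0.682) and 0.31 ± 0.082 (adjusted p = 0.0745), none of them called. The combination difference was called in 3 of 18 alternatives, with adjusted p from 0.0241 to 0.499. The dim probe set 234462_at read 81.4 to 98.2 on the 6 arrays without the combination, then 111.9 and 253.0 with it. Its combination difference of 0.90 ± 0.39 rested on the second array and was not called (adjusted p = 0.239 over all probe sets).

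No difference was called for the kinase that starts the cascade. LCK, read by probe set 204891_s_at, gave 8362 and 8114 in DMSO, 8516 and 8717 with PF-03084014, 8452 and 8210.4 with dexamethasone, and 8996 and 8554 with the combination. The PF-03084014 and combination arrays lay just above DMSO, and the dexamethasone arrays overlapped it. Differences were 0.065 ± 0.042, 0.016 ± 0.042 and 0.091 ± 0.042, with 95% intervals for this probe set reaching at most 0.20. After the shift to a common median the combination difference was -0.040. The second probe set, 204890_s_at, stood at 0.089, 0.081 and 0.24, also uncalled, with wider intervals that reached 0.38, 0.37 and 0.53.

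ZAP70 ran the other way. Probe set 214032_at read 4501 and 4830 in DMSO, 3462 and 3576 with PF-03084014, 4055 and 3724 with dexamethasone, and 3910 and 3437 with the combination. Every treated array was below both DMSO arrays. The differences were -0.41 ± 0.081 (adjusted p = 0.114), -0.26 ± 0.081 (adjusted p = 0.436) and -0.35 ± 0.081 (adjusted p = 0.0537), not called. Over 18 alternatives the combination difference was called in 4, with values from -0.56 to -0.25, and the PF-03084014 difference in 3. The probe set 1555613_a_at behaved alike: 1816 and 2047 in DMSO, 1277 and 1223 with PF-03084014, 1731 and 1465 with dexamethasone, and 1342 and 958 with the combination. Its differences were -0.63 ± 0.18, -0.28 ± 0.18 and -0.77 ± 0.18 (adjusted p = 0.294, 0.840 and 0.0717 over all probe sets). The interaction for ZAP70, which asks whether the joint difference departs from the sum of the single ones, was 0.32 ± 0.11 (adjusted p = 0.518).

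The adaptor LAT depended on the probe set. Probe set 211005_at read 3882 and 2890 in DMSO, 4215 and 4101 with PF-03084014, 3103 and 2760.5 with dexamethasone, and 4248 and 3508 with the combination. The DMSO arrays lay 0.43 log2 units apart and overlapped the dexamethasone and combination arrays. Differences were 0.31 ± 0.17, -0.19 ± 0.17 and 0.20 ± 0.17, none called. Probe set 209881_s_at read 3623 and 3358 in DMSO, 4037 and 3867 with PF-03084014, 3154 and 2861 with dexamethasone, and 3025 and 2643 with the combination. Here the combination arrays lay below DMSO, at -0.30 ± 0.089 (adjusted p = 0.115), and below the PF-03084014 arrays, at -0.48 ± 0.089 (adjusted p = 0.0860), both adjusted over all probe sets. The probe sets thus had the same sign under each single compound and opposite signs under the combination, and the mean of both stood at -0.049.

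**Figure D3:**
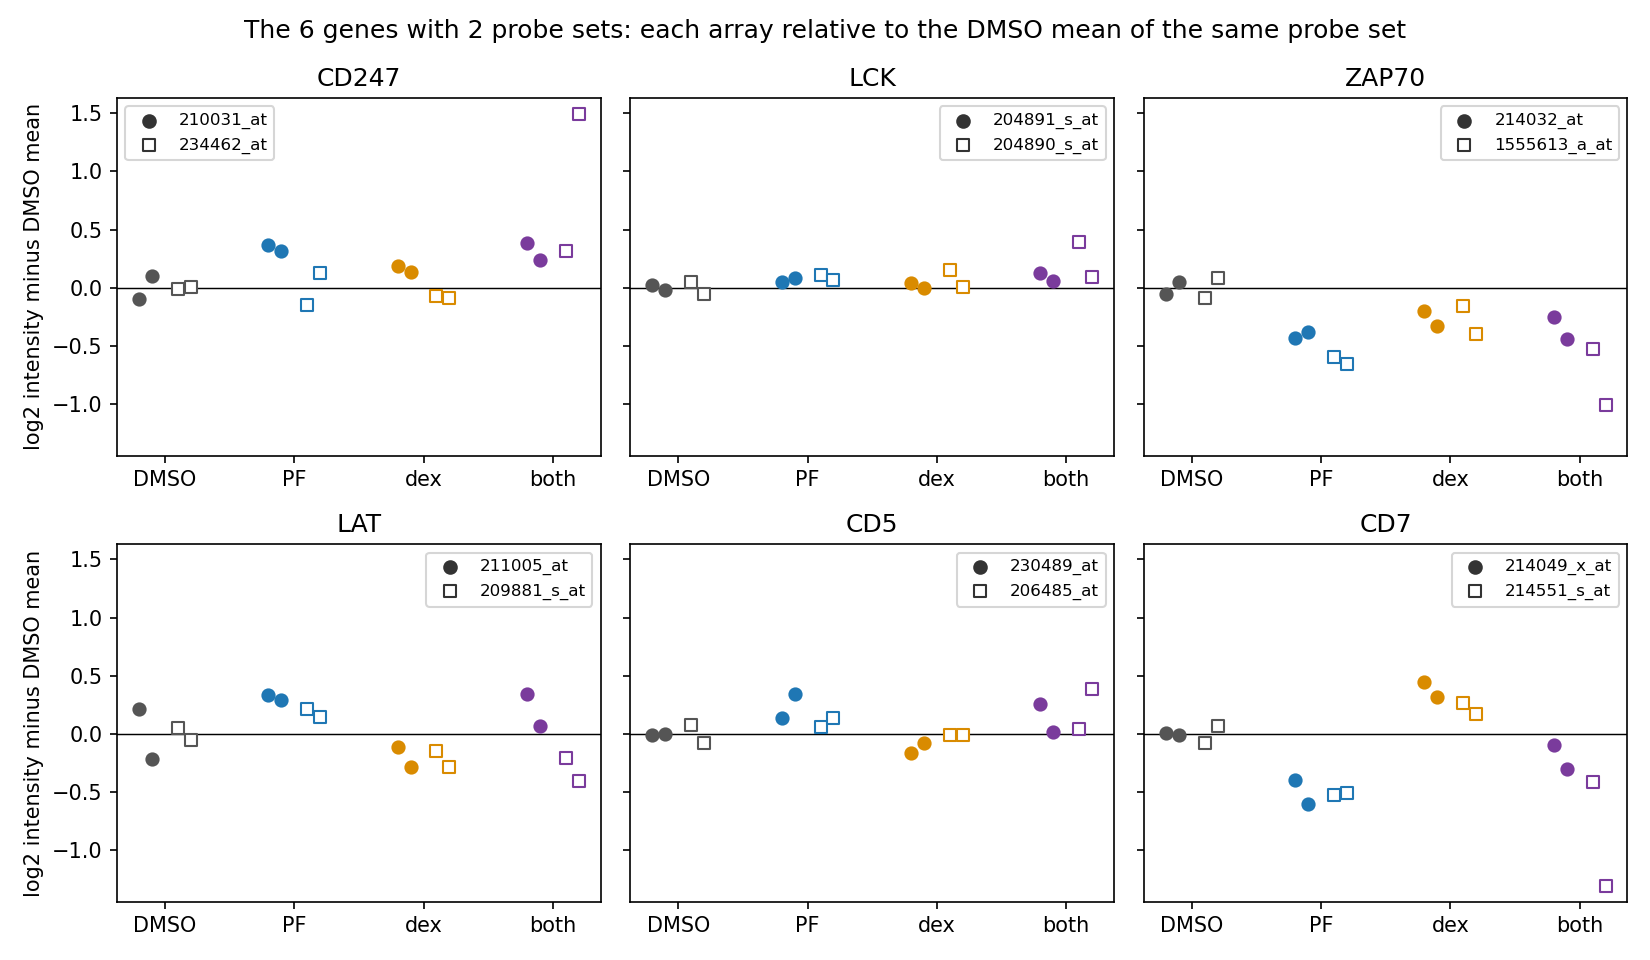
Log2 intensity of each array minus the DMSO mean of the same probe set (vertical axis) by treatment, for the 6 genes with 2 probe sets; circles are the probe set that represented the gene, open squares the other, and each group has 2 points of each. ZAP70 lies below 0 on every treated array with both, LAT splits under the combination, and the second combination array gives the extreme squares of CD247 and CD7.

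CD2 showed the clearest change among these genes. It encodes the adhesion receptor that binds CD58 on partner cells and adds to TCR signals. Its only probe set, 205831_at, read 3063 and 2804 in DMSO, 3872 and 3941 with dexamethasone, 4880 and 5136 with PF-03084014, and 7016 and 5788 with the combination. The groups did not overlap, and their order was DMSO, dexamethasone, PF-03084014, combination. Mean log2 intensity was 11.52 ± 0.090 (SD, n = 2) in DMSO and 12.64 ± 0.20 (SD, n = 2) with the combination. The rise of 1.12 ± 0.10 log2 units (limma adjusted p = 0.00486) was called in all 18 alternatives, at 0.98 to 1.26, with adjusted p from 9.81e-05 to 0.0377. Without the second combination array it was 1.26, and after the shift to a common median 0.99.

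The single compounds gave smaller differences in CD2. PF-03084014 stood at 0.77 ± 0.10, 1.71-fold, at an adjusted p of 0.05003 that just missed the threshold in limma and was called in 6 of 18 alternatives (adjusted p from 0.00311 to 0.284). Dexamethasone stood at 0.41 ± 0.10 (adjusted p = 0.318), with both arrays above both DMSO arrays. Against dexamethasone alone the combination was higher by 0.71 ± 0.10 (adjusted p = 0.0236), a call that ended in 8 of 18 alternatives, among them the common median shift (0.55, adjusted p = 0.0968). It also ended when any 1 DMSO, PF-03084014 or dexamethasone array was left out, at adjusted p from 0.0525 to 0.141. Against PF-03084014 alone the combination stood at 0.35 ± 0.10 (adjusted p = 0.157). The interaction was -0.067 ± 0.14 (95% interval -0.42 to 0.29, adjusted p = 0.882), so the joint difference could not be told from the sum of the single ones.

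CD7, an immunoglobulin-family antigen found on early T-lineage and natural killer cells, had opposite signs under the single compounds. Probe set 214049_x_at read 687 and 680.3 in DMSO, 521 and 451 with PF-03084014, 934 and 853 with dexamethasone, and 639 and 554 with the combination. The PF-03084014 arrays were the lowest and the dexamethasone arrays the highest, with DMSO and the combination between. Against DMSO the differences were -0.49 ± 0.11 (adjusted p = 0.132), 0.38 ± 0.11 (adjusted p = 0.384) and -0.20 ± 0.11 (adjusted p = 0.288). CD7 fell by 0.58 log2 units when PF-03084014 was added to dexamethasone (SE 0.11, limma adjusted p = 0.0402), but this call ended in 11 of 17 alternatives (adjusted p from 0.0111 to 0.199). Those included leaving out any array except the first of the combination. Probe set 214551_s_at read 235 and 259.7 in DMSO, 172 and 174 with PF-03084014, 297 and 279 with dexamethasone, and 185 and 100.1 with the combination, and gave -1.08 ± 0.29 for the same contrast (adjusted p = 0.118 over all probe sets). In that limma fit by probe set 214049_x_at had an adjusted p of 0.0554 and was not called.

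CD5, a scavenger-receptor family protein that damps TCR signals and whose surface level follows their strength, showed small differences. Probe set 230489_at read 1649 and 1658 in DMSO, 1816 and 2098 with PF-03084014, 1479 and 1568 with dexamethasone, and 1976 and 1677 with the combination. Arrays with PF-03084014 lay above DMSO and those with dexamethasone alone below it. Differences were 0.24 ± 0.10 (adjusted p = 0.430), -0.12 ± 0.10 (adjusted p = 0.865) and 0.14 ± 0.10 (adjusted p = 0.430). The dimmer 206485_at ranged from 258.5 to 357 and stood at 0.099, -0.0052 and 0.21.

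Adding PF-03084014 to dexamethasone changed 2 of the 10 genes by these calls, CD2 upwards and CD7 downwards, against 7.23% of all genes called (3.26% higher and 3.97% lower). Fitted by probe set, 1 of 16 was called higher, that of CD2, and 0 lower, so the fall of CD7 was not called there. CD3E stood at 0.25 ± 0.051 in this comparison (adjusted p = 0.0524). Adding dexamethasone to PF-03084014 gave 0 of 10 called by limma, against 2.84% of all genes. At an unadjusted limma p under 0.05 there were 3 members, against 18.7% of all genes. The interaction gave 0 of 10 called, against 0% of all genes, and 1 at an unadjusted p under 0.05, against 9.06%. The 3 comparisons with DMSO share their control arrays, so their signs are not independent. Both treated arrays lay beyond both DMSO arrays for 9 of the 10 genes with PF-03084014, 7 with dexamethasone and 8 with the combination. The same held for 46.5%, 42.6% and 50.5% of all genes.

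Of 21 other adaptors of the pathway that were measured, 10 rose with the combination, 0 fell and 11 were not called. The median difference was 0.37, beside 0.064 for all genes, of which 6.42% rose and 5.52% fell. The largest rises were DOK2 (1.93 ± 0.27), an inhibitory docking protein, FYB1 (1.18 ± 0.11), an adaptor linking the receptor to integrins, and SLA and SLA2 (0.74 ± 0.086 and 0.59 ± 0.073), which promote receptor turnover. Of 18 alternatives, these calls held in 16 for DOK2, FYB1 and SLA and in 14 for SLA2. FYB1 rested on 1 of 5 probe sets: 2 others stood at -0.48 and -0.90, uncalled. With PF-03084014 alone 3 adaptors rose, FYB1 (0.96 ± 0.11), the SLAM adaptor gene SH2D1A (0.46 ± 0.043) and NCK2 (0.39 ± 0.045), which joins the receptor to actin, against 0.819% of all genes called. Those calls held in 6, 8 and 7 of 18 alternatives. No adaptor was called with PF-03084014 when any 1 DMSO, PF-03084014 or dexamethasone array was left out or when probe sets were averaged, where FYB1 stood at 0.58 (adjusted p = 0.530). With dexamethasone limma called 0, and 3 had an unadjusted p under 0.05, against 8.96% of all genes. SLA stood at 0.30 ± 0.086 (adjusted p = 0.402). The combination count was 2 after the shift to a common median, 4 with probe sets averaged or array weights, and 9 without the second combination array. Leaving out the first or second DMSO array gave 4 or 5.

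Of 14 kinases and phosphatases that act on the receptor, 4 rose and 1 fell with the combination, against 6.42% and 5.52% of all genes (median 0.31, all genes 0.064). UBASH3B, a phosphatase that restrains ZAP70-type kinases, rose by 1.20 ± 0.088, the TEC-family kinase gene TXK by 0.73 ± 0.15 and CSK, the inhibitor of LCK, by 0.30 ± 0.045. PTPRC, the CD45 phosphatase that activates LCK, rose by 0.45 ± 0.074, and the inhibitory phosphatase gene PTPN6 fell by 0.34 (SE 0.071, limma adjusted p = 0.0386). The call held in all 18 alternatives for UBASH3B, in 13 for CSK and 9 for PTPRC, and in 7 of 17 for TXK and 5 of 17 for PTPN6. With PF-03084014 and dexamethasone limma called 0 in this list, with 3 and 2 at an unadjusted p under 0.05, against 13.2% and 8.96% of all genes. PTPRC stood at 0.37 ± 0.074 with the first (adjusted p = 0.114) and UBASH3B at 0.41 ± 0.088 with the second (adjusted p = 0.277). After the shift to a common median 1 rose and 0 fell with the combination, and the same was found when any 1 DMSO or dexamethasone array was left out. It was 2 and 0 with array weights or without either PF-03084014 array, and 3 and 0 with probe sets averaged.

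Of 19 genes downstream of LAT, 6 rose and 0 fell with the combination, against 6.42% and 5.52% of all genes (median 0.21, all genes 0.064). With PF-03084014 1 rose, against 0.819% of all genes called. That gene was RASGRP1, which couples the receptor to RAS, at 0.997 ± 0.088 with PF-03084014 (limma adjusted p = 0.0217) and 0.83 ± 0.088 with the combination. Its combination call held in all 18 alternatives and its PF-03084014 call in 12, ending in 5 of 8 that left out 1 array, the first DMSO array and each PF-03084014 and dexamethasone array. The diacylglycerol kinase gene DGKA (0.65 ± 0.077), the protein kinase C gene PRKCQ (0.45 ± 0.080) and the transcription factor gene NFATC3 (0.44 ± 0.055) also rose with the combination, calls that held in 15, 9 and 16 of 18 alternatives. With dexamethasone limma called 0, with 1 at an unadjusted p under 0.05, against 8.96% of all genes. The calcium sensor gene STIM1 stood at 0.31 ± 0.090 (adjusted p = 0.416). The combination count was 2 after the shift to a common median, with array weights or without either DMSO array, 3 with probe sets averaged, 7 without the second combination array and 10 without the first.

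Of 16 coreceptor and costimulatory genes, CD69, an early activation antigen (0.81 ± 0.15), and the adhesion receptor gene CD96 (0.76 ± 0.083) rose with the combination. CD27 fell by 1.53 (SE 0.15) and ICOS by 0.83 (SE 0.056), both costimulatory receptors. These 2 rises and 2 falls stand against 6.42% and 5.52% of all genes (median 0.22, all genes 0.064). CD27 and ICOS were called in all 18 alternatives. CD69 was called in 11, and lost its call when any 1 array outside the combination was left out; CD96 was called in 16, and stood at 0.18 (adjusted p = 0.132) with probe sets averaged. Without the first DMSO array CD27 and ICOS were still called lower and 0 genes higher. With PF-03084014 CD96 rose by 0.64 ± 0.083 (limma adjusted p = 0.0492), the 1 gene called, against 0.819% of all genes. That call held in 4 of 18 alternatives and was lost when any 1 array was left out (adjusted p from 0.00537 to 0.200 over the alternatives). With dexamethasone 0 were called by limma, with 5 at an unadjusted p under 0.05, against 8.96% of all genes. ICOS stood at -0.43 ± 0.056 (adjusted p = 0.113). Of the receptor chains, 2 of 6 listed genes were measured. PTCRA, the pre-TCR alpha chain, fell by 0.77 with PF-03084014 and by 0.38 with the combination and rose by 0.52 ± 0.040 with dexamethasone (adjusted p = 0.0107, 0.00676 and 0.0466). These calls held in 11, 16 and 4 of 17 alternatives. The dexamethasone call was lost when any 1 array was left out and after the shift to a common median (adjusted p = 0.413), the PF-03084014 call in 5 of 8 such omissions, namely the first DMSO array and each PF-03084014 and dexamethasone array. With probe sets averaged all 3 calls were lost (adjusted p = 0.369, 0.189 and 0.680). TRBC1, a constant region of the beta chain, was not called.

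**Figure D4:**
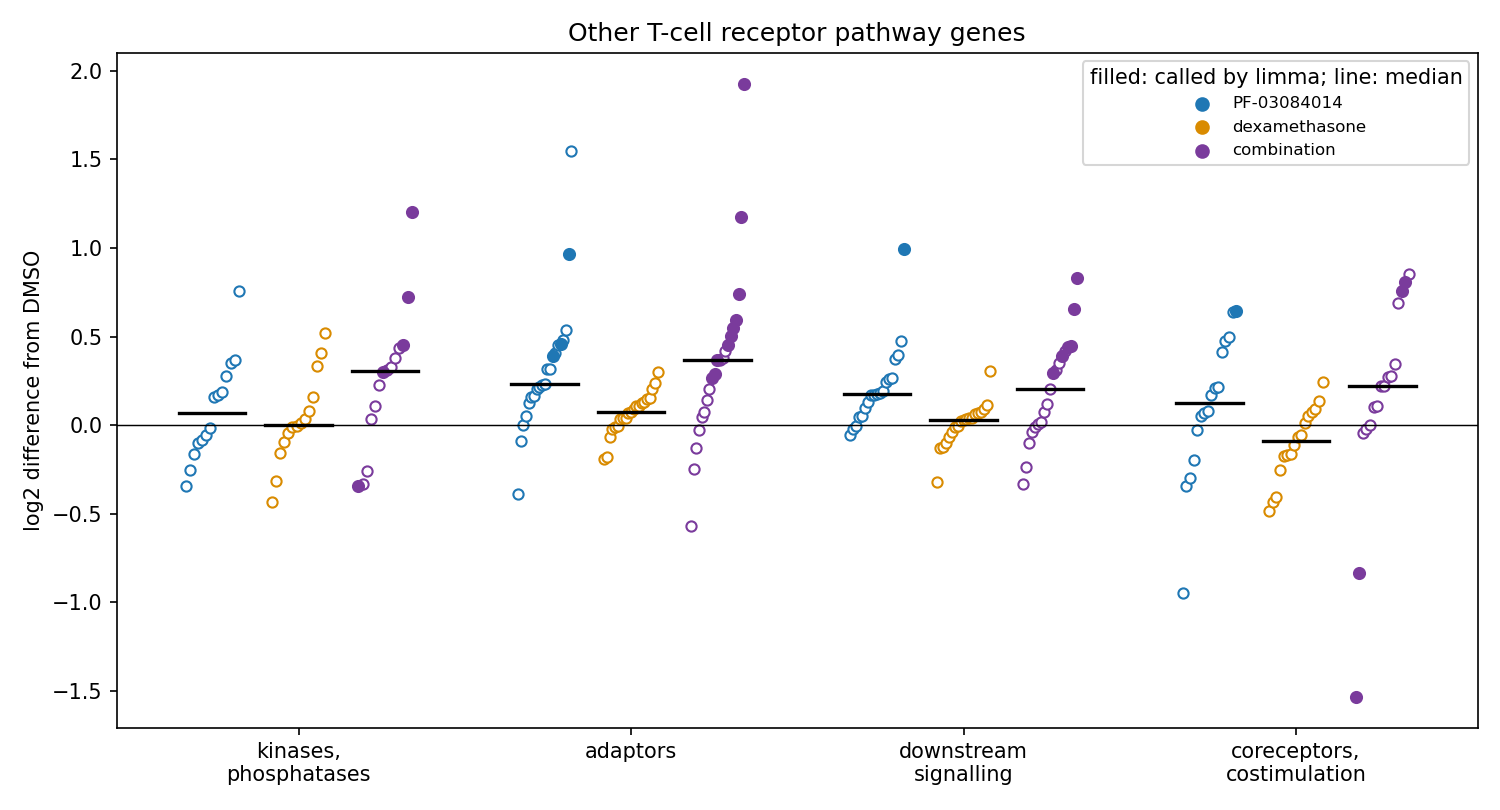
Log2 difference from DMSO (vertical axis) of the other pathway genes in 4 lists, by treatment; each point is a gene, filled where limma called it, and lines are medians. Adaptors hold 10 filled points under the combination, all above 0, and no point is filled under dexamethasone.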

How the data were processed

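Probe-set intensities of 8 arrays are on the linear scale the authors deposited; per the labels' protocols, 200 ng of RNA went into labelled cRNA. For summarisation, background step and normalization, the method is not stated in the labels. Values below 16 were set to 16 and converted to log2. Of 42898 annotated probe sets, 1801 naming several genes were left out; symbols are those of the annotation supplied. All 8 arrays were fitted in limma 3.58.1 (R 4.3.3) as 4 group means, with an intensity trend in eBayes. The fit left 4 residual degrees of freedom. Adjusted p-values are Benjamini-Hochberg, two-sided, over all genes, or over all probe sets where named. The median prior added 1.36 degrees of freedom. The error pools 1 spread over all groups, and the SD of the replicate difference was 0.548 for the combination against 0.325 to 0.361 elsewhere. Errors of contrasts with the combination thus tend to be too small and those of contrasts without it too large. Counts of calls for the combination and the single compounds are therefore not on equal terms. With array weights 728, 109 and 859 genes were called for PF-03084014, dexamethasone and the combination against DMSO. The fit reported called 162, 20 and 2360.

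The members and lists were chosen with earlier results of these data known. Named were all 10 members with all probe sets, NRARP and TSC22D3, and, from each pathway list and treatment against DMSO, up to 4 called genes with the largest rise and 4 with the largest fall, or the gene with the smallest p. For members called against DMSO, the 3 genes of highest Pearson r were named. Lists covered receptor kinases and phosphatases, adaptors, downstream genes, coreceptors and costimulation, receptor chains, ligands of CD2, CD5 and CD7, and markers of T, B, natural killer, myeloid, erythroid, and epithelial and stromal cells. Some listed genes are not analysed here.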

Additional observations from a re-analysis of the deposited data

How the results depend on the processing

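The 60 gene-level differences of the 10 members were recomputed under 18 alternatives, which gave 1068 values. Of these, 969 kept direction and side of the threshold, a count that includes uncalled differences that stayed uncalled. Another 56 changed direction, none of them called in the fit reported, 21 lost the call and 22 gained it. The lost calls were 2 of CD3E and 0 of CD2 for the combination against DMSO, and 8 of CD2 and 11 of CD7 against dexamethasone. Differences that changed direction included 0.29 for CD7 (combination against PF-03084014) and -0.24 for CD3G (PF-03084014 against DMSO), and the cause was not tested. Members called with PF-03084014 (0 reported) numbered 1 under quantile normalization and 2 with a pseudocount of 16, the dimmer genes left out, or array weights. All genes called with it numbered 162 as reported, then 180, 318, 433 and 728 in that order. The intensity filter, which left out the dimmer genes, tested fewer genes. For the combination against DMSO (2 reported) members called numbered 4 under quantile normalization, the pseudocount or the intensity filter, and 1 after the common median shift or with array weights. All genes called for it numbered 2360 as reported, then 2350, 2799, 3092, 1441 and 859 in that order. For the combination against dexamethasone (2 reported) the number of members was 1 after the shift, with a floor of 32, with probe sets averaged, without _x_at and _s_at probe sets, or without the trend, and 0 with array weights. All genes called for it numbered 1430 as reported, then 803, 1201, 787, 947, 904 and 191 in that order. Member probe sets called are counted here and below as pairs of a probe set and a treatment against DMSO. They numbered 2 as reported, 6 with the pseudocount and 8 with the filter. Leaving out 1 array gave 0 to 1 members with PF-03084014, 0 to 0 with dexamethasone, 2 to 4 with the combination, 0 to 3 for combination against dexamethasone, 0 to 1 against PF-03084014, 0 to 0 for the interaction and 1 to 9 probe sets. Quantile normalization put CD3D at 0.015, 0.033 and 0.0095 for the combination against DMSO, dexamethasone and PF-03084014, and at 0.028 for the interaction. The common median shift put LCK at -0.040, -0.078, -0.10 and -0.14 in that order, CD247 against dexamethasone at -0.0069, ZAP70 against PF-03084014 at -0.071, and the interactions of CD3E, CD3G, LAT and CD5 at -0.10, -0.13, -0.065 and -0.13. With probe sets averaged, LAT stood at -0.049 against DMSO and -0.090 for the interaction. CD247 then stood at 0.44 and ZAP70, CD5 and CD7 at -0.041, 0.0077 and -0.025 against PF-03084014, with CD247 at 0.40 for the interaction. Without _x_at and _s_at probe sets FYB1 stood at -0.90 with the combination and TSC22D3 at 0.18 with PF-03084014. TSC22D3 then also lost its calls with dexamethasone (0.39, adjusted p = 0.913) and the combination (0.52, adjusted p = 0.470). Leaving out 1 array turned the sign of CD3G with PF-03084014 (-0.50 to 0.0077), of LCK (-0.0056 to 0.038), LAT (-0.41 to 0.018) and NRARP (-0.21 to 0.0066) with dexamethasone, and of CD3D (-0.17 to 0.030) and LAT (-0.0082 to 0.42) with the combination. Against dexamethasone it turned CD3D (-0.14 to 0.057), CD3G (-0.49 to 0.043) and ZAP70 (-0.18 to 0.0087). Against PF-03084014 it turned CD3D (-0.20 to 0.0022), CD3G (-0.32 to 0.21), CD247 (-0.10 to 0.041), LCK (-0.010 to 0.062), ZAP70 (-0.034 to 0.15), LAT (-0.25 to 0.031) and CD5 (-0.22 to 0.018). For the interaction it turned CD3D (-0.17 to 0.029), CD3E (-0.016 to 0.12), CD3G (-0.25 to 0.29), LCK (-0.027 to 0.046), LAT (-0.13 to 0.30), CD2 (-0.21 to 0.072), CD5 (-0.10 to 0.14) and CD7 (-0.19 to 0.014). The dexamethasone call of TSC22D3 was lost without either dexamethasone array (adjusted p = 0.0868 and 0.0581), and the PF-03084014 call of NRARP in 5 of 8 omissions. Where 1 array remained in a group it was assumed to vary like the others. Correlations of replicate deviations between groups were -0.0103 to 0.0816 over all genes. Such values cannot show whether arrays of the same replicate number shared a culture or day, which the labels do not say. With the replicate block 2 members were called for the combination against DMSO, 2 against dexamethasone and 0 elsewhere, as without it, and 3 probe sets were called in place of 2.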

Other observations

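Ligands of the 3 surface receptors were also measured. Of 5 genes for ligands of CD2, CD5 and CD7, limma called 0 under each treatment against DMSO, and 0 had an unadjusted p under 0.05. CD72, reported as a CD5 ligand, stood at -0.35 ± 0.19 with PF-03084014 (adjusted p = 0.552), 0.37 ± 0.19 with dexamethasone (adjusted p = 0.684) and -0.34 ± 0.19 with the combination (adjusted p = 0.306).

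Genes whose log2 intensity followed that of CD2 most closely over the 8 arrays were LOC728392 (Pearson r 0.994), MTMR1 (0.993) and AP1S2 (0.991). Those closest to CD3E were FBXO3 (0.993), FRMD8 (0.992) and DSTYK (0.992). These are the highest of 10791 genes searched, and the 8 arrays fall into 4 treatment groups, so the values describe a shared order of groups. CD2 and CD3E themselves had r = 0.96.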
